A study of Mus musculus with 16 samples.

Results

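These 83 genes rose strongly when cultured mouse embryonic fibroblasts were given the deacetylase inhibitor trichostatin A (TSA), in each of 4 cell lines. They were chosen by rule from 11481 genes measured on Affymetrix mouse expression arrays. A gene entered if its probe set of highest mean read a signal of at least 200 on 2 or more arrays and if TSA minus the ethanol vehicle (EtOH) was at least 1.2 on the log2(signal + 50) scale in each line. This fold criterion was met by 88 genes, 0.766% of those tested. Bcl2l11, Klf2, Mxd1, Rhpn2 and Slc2a3 met it too and were left out by name. The rule read the 8 EtOH and TSA arrays, so the values on those arrays are given as a description. The other 8 arrays, with the iron chelator dipyridyl (DP) alone or with TSA and DP, took no part in the fold criterion. They are called the held-out arrays, and they carry the tests.

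The series holds 16 arrays, 1 for each of 4 lines under each of 4 treatments, in 8 groups of 2. All 4 lines were grown from e14.5 embryos. An adenovirus delivered Cre recombinase to the cells at passage 3, and they were then expanded at least 100-fold. Flox1 carried 1 conditional allele of CBP (CBP+/flox) and flox2 carried 1 conditional allele of p300 (p300+/flox), and these are called the control lines. The line triCH1flox1 was CBP CH1/flox with p300 CH1/CH1, and triCH1flox2 was CBP CH1/CH1 with p300 CH1/flox, so that after Cre neither had an allele with an intact CH1 domain. TSA was given at 100 ng/ml, EtOH or DP at 100 µM followed 30 minutes later, and cells were lysed 3 hours after that, all in normal oxygen. Each line came from its own embryo and was grown as 1 culture per treatment. P-values therefore rest on the spread of a change between the 4 lines and not between repeat cultures of a line. For each gene this spread was moderated towards that of other genes of like signal, and the SEs given are the moderated ones. Values per line are given throughout in the order flox1, flox2, triCH1flox1 and triCH1flox2.

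Histone deacetylases remove acetyl groups from lysines of histones and of many other proteins. TSA blocks the zinc-dependent members of this enzyme family, histone acetylation then accumulates within hours, and genes move in both directions. CBP and p300 are the acetyltransferases that work against these enzymes at many promoters, and their CH1 domain is the contact for the hypoxia-inducible factors. DP takes up iron, stops the iron-dependent hydroxylases that mark those factors for destruction, and so mimics low oxygen. Of 46 tested target genes of the hypoxia-inducible factors (HIF), 37 were on every DP array above every EtOH array, against 2.26% of all genes. Their median DP minus EtOH difference on the log2(signal + 50) scale was 1.90 in flox1, 1.75 in flox2, 1.04 in triCH1flox1 and 1.13 in triCH1flox2.

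The arrays were broadly alike, with pairwise correlations of 0.903 to 0.958 over all probe sets and 36.8% to 42.6% of probe sets at a signal of 200 or more. The flox1 EtOH array, which the rule used, stood apart with a 3' to 5' ratio of 2.59 for GAPDH (1.26 at most on the others) and an 18S RNA signal of 10718. The flox2 DP array, which is among the tested arrays, read 7428 for 18S RNA, against 3146 at most on the remaining arrays. All 10 fibroblast markers passed the filter and summed to between 136516 and 167811 on every array, while the 5 endothelial and the 5 germ cell markers were under 200 on all arrays. Markers of other cell types passed in part: 6 of 10 for neurons, 3 of 5 for skeletal muscle, 2 of 6 for macrophages, 2 of 5 for epithelium and 1 of 3 on the array for adipocytes. Of 4 erythroid markers only 2 were on the array, and 0 passed. No gene of these marker lists is among the 83, and the part of other cells in the results was not tested. Crebbp (CBP) and Ep300 (p300), whose probes need not lie in the deleted parts and so do not check the genotypes, both fell with TSA when DP was present, to 0.314 and 0.358 of their level (adjusted p = 2.21e-08 and 3.05e-06).

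On the arrays that the rule used, the mean TSA change of the members ran from 1.28 to 2.89 with a median of 1.80, against 0.03 over all genes. These values follow from the rule. The members just inside the threshold were Pdxk, whose lowest line met it to within rounding, Rbm34 at 1.207 and Hsd17b7 at 1.208. The genes just outside were Ccdc32 at 1.197, Tent5b at 1.189 and Nfkbie at 1.188. Under the vehicle many members were dim: 45 had a mean EtOH signal under 200, and 40 were under 200 on every EtOH array. Those 40 passed the filter on signal only through arrays of the other treatments, and all members but Prr15 passed it on the EtOH and TSA arrays alone. For such dim genes the size of the fold depends on the added 50.

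**Figure D1:**
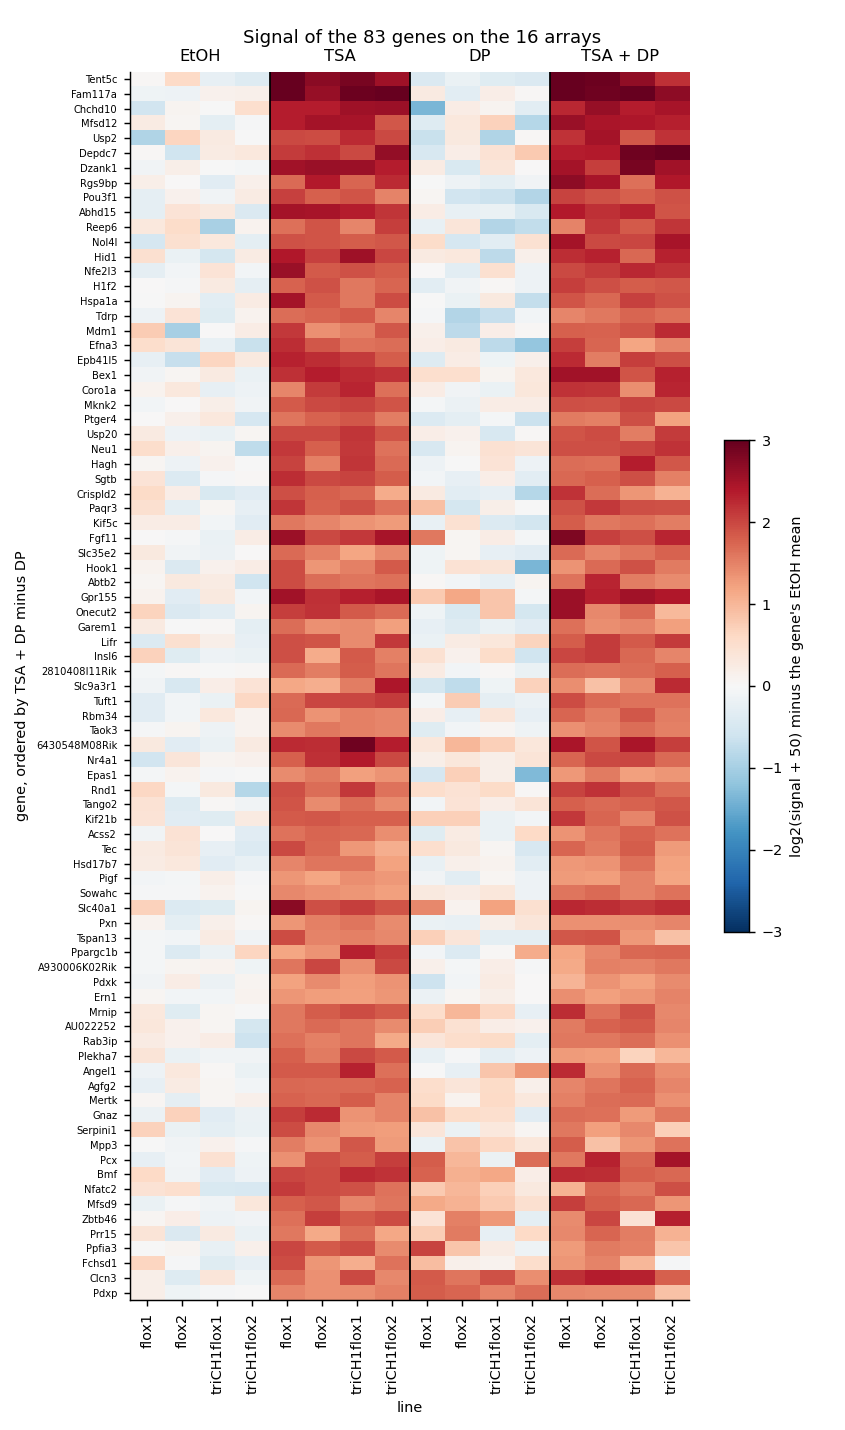
Each row is 1 of the 83 genes and each column 1 of the 16 arrays, grouped by treatment, and the colour gives log2(signal + 50) minus the gene's EtOH mean. The DP block is pale for most genes and red for Clcn3 and Pdxp in the bottom rows, and the block with TSA and DP is red nearly throughout.

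With DP present, TSA raised 78 of the 83 genes (94.0%, limma with line as a block, adjusted p under 0.05), against 20.7% of all genes tested. Pdxp was the 1 member that fell, against 14.4% of all genes, and Fchsd1, Ppfia3, Prr15 and Zbtb46 did not pass the test. In such bulk cultures fewer cells of a type and less RNA per cell cannot be told apart. The median change of the members was 1.67 on the log2 scale, or 3.17-fold, against 0.02 over all genes. In 75 members (90.4%) every TSA and DP array stood above every DP array, against 14.7% of all genes. The full criterion of 1.2 in each line was met again by 45 members (54.2%), against 0.793% of all genes. In the mean 73 members were at least 2-fold higher, a share not taken over all genes. The medians per line were 1.68, 1.64, 1.67 and 1.77. Without flox2, whose DP array had the high 18S RNA signal, 71 members rose. This is not particular to flox2, since leaving out any 1 line gave 71 to 75, with 71 also without triCH1flox2. With the filter on signal applied to the EtOH and TSA arrays alone, 82 members remained and 78 rose, so Prr15 was a member only through a held-out array. With the probe set of each gene also chosen on the EtOH and TSA arrays alone, the rule gave 83 genes, of which 82 were the same and 77 rose.

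**Figure D2:**
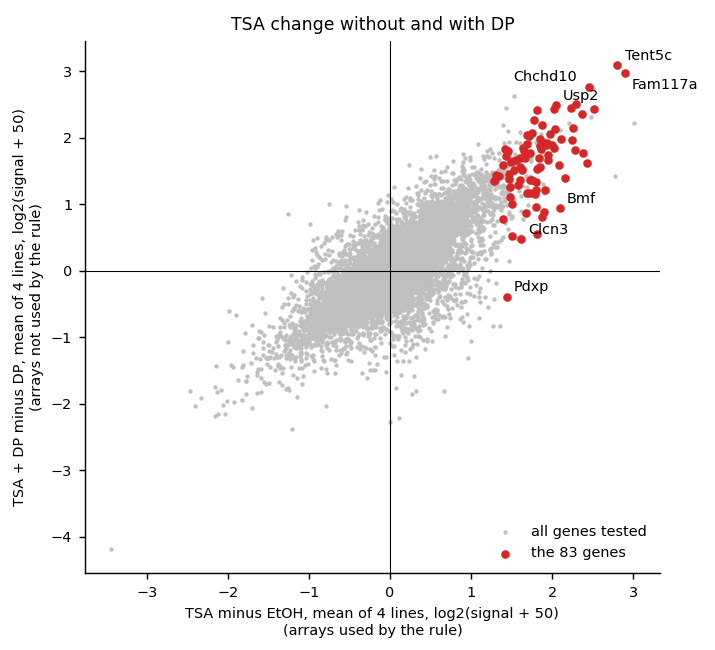
Each point is a gene, with its mean TSA change without DP on the horizontal axis and with DP on the vertical axis, both on the log2(signal + 50) scale over 4 lines. The 83 members, in red, start at 1.28 on the horizontal axis and run from -0.39 for Pdxp to 3.09 for Tent5c on the vertical axis, where Clcn3 is at 0.48.

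With 50 added to the signal, the largest held-out changes belonged to Tent5c and Fam117a. This order depends on the added value: with 16 in its place Tent5c, Rgs9bp and Pou3f1 led, and with 200 Fam117a, H1f2 and Chchd10 led and Tent5c came sixth. The folds given below for dim members depend on it too. With 16 and with 200 added, Dzank1 rose 8.48-fold and 2.61-fold and Abhd15 7.92-fold and 2.48-fold. Onecut2 rose 5.57-fold and 1.79-fold and Coro1a 5.71-fold and 2.05-fold. Tent5c is a poly(A) polymerase that lengthens the tails of messenger RNAs and is best known from plasma cells. With DP alone Tent5c read 20.2, 32.0, 22.7 and 19.5, and with TSA and DP 784, 677, 545 and 377. The gene went from near the floor of the array to a clear signal in every line, 8.53-fold, a log2 change of 3.09 ± 0.284 (SE, n = 4 lines, adjusted p = 3.23e-07), and the log2 change was 3.91 with 16 added and 1.80 with 200. Fam117a, about which little is described, already had a moderate signal without TSA. With DP alone Fam117a read 296, 182, 279.5 and 248, and with TSA and DP 2595, 2113, 2751 and 1813. Its groups lay far apart, 7.85-fold, a log2 change of 2.97 ± 0.133 (SE, n = 4 lines, adjusted p = 1.16e-10). Chchd10 encodes a small mitochondrial protein of the inner membrane folds. With DP alone Chchd10 read 31.6, 194, 174 and 119, and with TSA and DP 953, 1236, 1019.7 and 1116. Here too no array of the one group reached the other, 6.80-fold, a log2 change of 2.77 ± 0.215 (SE, n = 4 lines, adjusted p = 5.01e-08), and the flox1 DP array was the lowest of its group.

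Next in order came Mfsd12, Usp2, Depdc7, Dzank1, Rgs9bp, Pou3f1, Abhd15, Reep6 and Nol4l, with changes from 2.51 down to 2.19. Mfsd12 is a transporter of lysosomes and melanosomes. With DP alone Mfsd12 read 99.6, 193, 264 and 58.6, and with TSA and DP 1127, 1020.0, 1000.1 and 934. Its TSA and DP arrays were close together and its DP arrays less so, 5.69-fold, a log2 change of 2.51 ± 0.221 (SE, n = 4 lines, adjusted p = 2.05e-07). Usp2 is a deubiquitinating enzyme with a strong daily rhythm in many tissues. With DP alone Usp2 read 59.8, 161, 43.0 and 128, and with TSA and DP 735, 922, 577 and 736. The groups did not overlap, 5.60-fold, a log2 change of 2.49 ± 0.216 (SE, n = 4 lines, adjusted p = 1.81e-07), and a further Usp2 probe set changed by 2.98. Depdc7 was higher with TSA and DP than with TSA alone in each line, as described further on.

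The promoters of 61 of the 83 members are in the RefSeq table used here (build GRCm38.p6, from 250 bases before to 50 bases after the start), which is 73.5% and too few for a comparison over the members. Those of the 3 members with the largest and the 2 with the smallest held-out change are shown, 5' to 3' on the gene's strand. The latter, Pdxp and Clcn3, stood well above EtOH with DP alone, as described further on. A part of these sequences in the response to TSA was not tested. Capitals mark the GC box GGGCGG, the CCAAT box CCAAT and the cAMP response element TGACGTCA, searched on both strands.
Tent5c, chr3:100489143-100489442, minus strand: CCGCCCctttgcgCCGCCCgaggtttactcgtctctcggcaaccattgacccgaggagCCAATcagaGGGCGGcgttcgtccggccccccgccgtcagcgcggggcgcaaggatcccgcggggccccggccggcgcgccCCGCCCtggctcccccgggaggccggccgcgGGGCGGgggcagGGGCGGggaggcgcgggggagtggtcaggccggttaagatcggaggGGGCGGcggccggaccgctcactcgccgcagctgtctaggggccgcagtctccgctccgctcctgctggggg
Fam117a, chr11:95336768-95337067, plus strand: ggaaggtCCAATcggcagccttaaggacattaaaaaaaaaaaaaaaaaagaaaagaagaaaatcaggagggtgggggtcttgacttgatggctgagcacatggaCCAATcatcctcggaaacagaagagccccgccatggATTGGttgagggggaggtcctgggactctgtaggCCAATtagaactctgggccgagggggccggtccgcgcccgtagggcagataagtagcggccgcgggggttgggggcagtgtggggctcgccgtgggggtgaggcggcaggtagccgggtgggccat
Chchd10, chr10:75932880-75933179, plus strand: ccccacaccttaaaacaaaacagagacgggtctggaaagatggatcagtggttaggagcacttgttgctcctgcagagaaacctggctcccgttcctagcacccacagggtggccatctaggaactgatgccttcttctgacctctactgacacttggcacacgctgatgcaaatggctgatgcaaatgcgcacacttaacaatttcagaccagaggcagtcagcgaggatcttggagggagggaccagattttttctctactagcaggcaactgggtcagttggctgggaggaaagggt
Pdxp, chr15:78913669-78913968, plus strand: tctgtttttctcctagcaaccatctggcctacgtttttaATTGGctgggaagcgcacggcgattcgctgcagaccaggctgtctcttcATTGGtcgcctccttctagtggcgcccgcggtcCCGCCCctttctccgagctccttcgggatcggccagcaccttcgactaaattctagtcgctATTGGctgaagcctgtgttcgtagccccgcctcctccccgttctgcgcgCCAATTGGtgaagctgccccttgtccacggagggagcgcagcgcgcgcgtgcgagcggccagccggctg
Clcn3, chr8:60983262-60983561, minus strand: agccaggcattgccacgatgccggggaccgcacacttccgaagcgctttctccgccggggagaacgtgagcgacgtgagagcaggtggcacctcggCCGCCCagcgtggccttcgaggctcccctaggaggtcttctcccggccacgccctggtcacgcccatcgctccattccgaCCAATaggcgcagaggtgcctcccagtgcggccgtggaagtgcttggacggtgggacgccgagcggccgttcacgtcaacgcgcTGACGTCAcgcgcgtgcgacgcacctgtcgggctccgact

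The leading promoters were unlike each other. Tent5c had 78.0% G and C and 42 CpG dinucleotides, against medians of 52.7% and 7 over all 27025 promoters of the table, and held 7 GC boxes and 1 CCAAT box. Fam117a held 4 CCAAT boxes and no GC box. Chchd10, with 5 CpG dinucleotides, had no match to any of these letters. Pdxp held 5 CCAAT boxes, 2 of which overlap as CCAATTGG, and 1 GC box, and Clcn3 held 1 GC box, 1 CCAAT box and 1 cAMP response element. Over all promoters the GC box occurred in 35.9%, the CCAAT box in 37.9% and the cAMP response element in 1.88%. A match describes the letters and is no evidence of binding.

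Genes of receptors and signalling made up 13 members, all of which rose with DP present, with a median of 1.73. Among the ligands were Efna3, the Eph receptor ligand ephrin-A3, and Fgf11, a fibroblast growth factor that stays inside the cell and rose 3.52-fold (adjusted p = 0.000265). With DP alone Efna3 read 262, 276, 108 and 71.5, and with TSA and DP 1088, 865, 564 and 701. Both triCH1 lines were below both control lines under either treatment, while the change was present in each line, 3.96-fold, a log2 change of 1.99 ± 0.201 (SE, n = 4 lines, adjusted p = 1.01e-06). Among the receptors were Ptger4 for prostaglandin E2, Lifr for leukaemia inhibitory factor and Mertk, which serves the uptake of dying cells. With DP alone Ptger4 read 327, 356, 435 and 270.5, and with TSA and DP 1421, 1369, 1866 and 1103. It had a clear signal before TSA and was higher in all lines, 3.73-fold, a log2 change of 1.90 ± 0.129 (SE, n = 4 lines, adjusted p = 1.06e-08). Lifr rose 3.24-fold and Mertk 2.24-fold (adjusted p = 1.81e-07 and 0.000112). Inside the cell, Garem1, an adaptor of growth factor receptors, went from 667, 599.8, 689.5 and 623 with DP to 2621, 2177, 2302 and 1934 with TSA and DP. The kinase Taok3 went from 939.5, 1146, 1274 and 1112 to 3260.3, 3485, 4002 and 3544, with narrow groups far apart, 3.11-fold, a log2 change of 1.64 ± 0.0879 (SE, n = 4 lines, adjusted p = 1.47e-09). Rgs9bp, known as the anchor of a G protein regulator in photoreceptors, went from 24.8, 17.7, 11.6 and 19.8 to 429.5, 364, 186 and 345. All its DP values were below the added 50, so the size of its rise has no firm value: it was 5.40-fold with 50 added, 9.77-fold with 16 and 2.39-fold with 200 (adjusted p = 3.59e-05, 9.37e-05 and 1.93e-05). The Tec kinase, Paqr3, Gpr155, the hormone gene Insl6 and the G protein subunit gene Gnaz made up the remainder of the group, between 2.21-fold for Gnaz and 3.56-fold for Paqr3. Gnaz lost the call without flox2 or without triCH1flox2 (adjusted p = 0.0574 and 0.103).

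Transcription factors and chromatin genes numbered 9, of which 8 rose and Zbtb46 did not pass. H1f2 is a linker histone that packs nucleosomes together. With DP alone H1f2 read 2814, 3259.8, 3618 and 3161, and with TSA and DP 15126, 13668, 12540.1 and 12937. Its groups were narrow and far apart, 4.18-fold, a log2 change of 2.06 ± 0.0841 (SE, n = 4 lines, adjusted p = 4.04e-11), and a further probe set of the gene changed by 2.15. Of 7 tested genes on a list of histone genes, H1f2 was the only member, and 4 rose, against 20.7% of all genes. These were H1f2, the histone variant gene H3f3b at 1.97-fold (adjusted p = 0.0104), H1f10 at 1.53-fold and H2ax by 0.26 on the log2 scale (adjusted p = 0.0015 and 0.0299). Of 14 tested genes taken as histones by symbol, 6 rose and 0 fell. Nr4a1, an orphan nuclear receptor of the immediate early class, read 678, 767, 688 and 803 with DP and 2130.0, 2504, 2552 and 2073 with TSA and DP. It was higher in each line, 3.01-fold, a log2 change of 1.59 ± 0.109 (SE, n = 4 lines, adjusted p = 1.14e-08). Pou3f1, a POU factor of glia and early neural cells, read 56.3, 18.7, 14.7 and 5.0 with DP and 367, 331, 301 and 330.1 with TSA and DP. Of its DP values 3 were below the added 50, so the size of its rise has no firm value: it was 5.34-fold with 50 added, 9.74-fold with 16 and 2.39-fold with 200 (adjusted p = 2.82e-05, 9.78e-05 and 1.09e-05). Epas1, which encodes the hypoxia-inducible factor HIF-2 alpha, read 127, 358, 234 and 49.5 with DP and 568, 684, 542 and 582 with TSA and DP. These groups did not overlap, 3.02-fold, a log2 change of 1.59 ± 0.256 (SE, n = 4 lines, adjusted p = 1.13e-04), but a dim second probe set moved by -0.32, and the mean of both did not pass (0.63, adjusted p = 0.146). Nfe2l3, a stress-related leucine zipper factor, and Onecut2 rose 4.36-fold and 3.33-fold. Ppargc1b, a coactivator of mitochondrial genes, and Nfatc2, a calcium-regulated factor, rose 2.57-fold and 1.84-fold, and both lost the call when 1 line was left out, Ppargc1b without flox2 or triCH1flox1 and Nfatc2 without any of the lines but flox1.

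All 4 genes of RNA and translation rose. Mknk2 is a kinase that phosphorylates the cap-binding protein of translation. With DP alone Mknk2 read 3416, 3119, 4138 and 4118, and with TSA and DP 13649.6, 13403, 14599.7 and 14212. The 4 lines were nearly equal on either side, 3.76-fold, a log2 change of 1.91 ± 0.0703 (SE, n = 4 lines, adjusted p = 1.78e-11). Rbm34, an RNA-binding protein, rose 3.14-fold and Angel1, which also binds the cap-binding protein, 2.32-fold (adjusted p = 8.63e-09 and 0.00562). The Angel1 change was uneven over the lines and was lost without flox1 (0.87, adjusted p = 0.0503).

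Cytoskeletal, motor and adhesion genes numbered 12, of which 10 rose and Fchsd1 and Ppfia3 did not pass. The kinesins Kif5c and Kif21b, motors that carry cargo along microtubules and are prominent in neurons, both rose. With DP alone Kif5c read 288, 492, 249 and 218, and with TSA and DP 1345, 1125, 1194 and 1089. The flox2 DP array was the highest of its group and still below every TSA and DP array, 3.55-fold, a log2 change of 1.83 ± 0.169 (SE, n = 4 lines, adjusted p = 3.55e-07). Kif21b rose 2.88-fold (adjusted p = 3.62e-06), and Hook1, an adaptor of the dynein motor, 3.48-fold (adjusted p = 0.000161). Pxn encodes paxillin, a scaffold of focal adhesions. With DP alone Pxn read 1839, 1806, 2424 and 2736, and with TSA and DP 5626, 5570.4, 5684 and 5923. The triCH1 lines had the higher DP values and a smaller change, 2.59-fold, a log2 change of 1.37 ± 0.0913 (SE, n = 4 lines, adjusted p = 8.92e-09). Coro1a, an actin-binding protein typical of leukocytes, rose 3.84-fold (adjusted p = 0.000184). The 6 macrophage markers, of which Csf1r and Adgre1 passed the filter, summed to between 597 and 916 on DP arrays and between 580 and 764 with TSA and DP. Epb41l5 and the centriole protein Mdm1 rose 3.94-fold and 4.06-fold. The junction protein Plekha7 and the scaffold Mpp3 passed narrowly at 2.33-fold and 2.01-fold (adjusted p = 0.0263 and 0.0448). Plekha7 lost the call without any 1 of the 4 lines, and Mpp3 without any line but flox2.

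Transport and membrane traffic genes also numbered 12, and all rose. Slc9a3r1, a scaffold that holds transporters at the membrane, read 841, 699, 1113 and 1994 with DP and 3293, 2308, 3345 and 5962 with TSA and DP. The line triCH1flox2 was the highest under both treatments, and the change in each line was alike, 3.17-fold, a log2 change of 1.67 ± 0.0941 (SE, n = 4 lines, adjusted p = 2.13e-09). Slc40a1 is ferroportin, the exporter of cellular iron. With DP alone Slc40a1 read 176, 40.0, 143 and 67.2, and with TSA and DP 353, 336, 311 and 338. Its DP values were scattered while those with TSA and DP were close together, 2.62-fold, a log2 change of 1.39 ± 0.285 (SE, n = 4 lines, adjusted p = 0.00101). Rab3ip, which activates small GTPases of vesicle transport, rose 2.40-fold and Hid1, a protein of secretory granules, 4.41-fold (adjusted p = 2.96e-07 and 3.75e-06). Reep6, which shapes the endoplasmic reticulum, Slc35e2, Tango2, Tspan13 and Agfg2 rose between 2.25-fold for Agfg2 and 4.81-fold for Reep6. Mfsd9 and Clcn3 had the smallest changes of the group, at 1.83-fold and 1.39-fold, and are taken up with the DP levels.

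**Figure D3:**
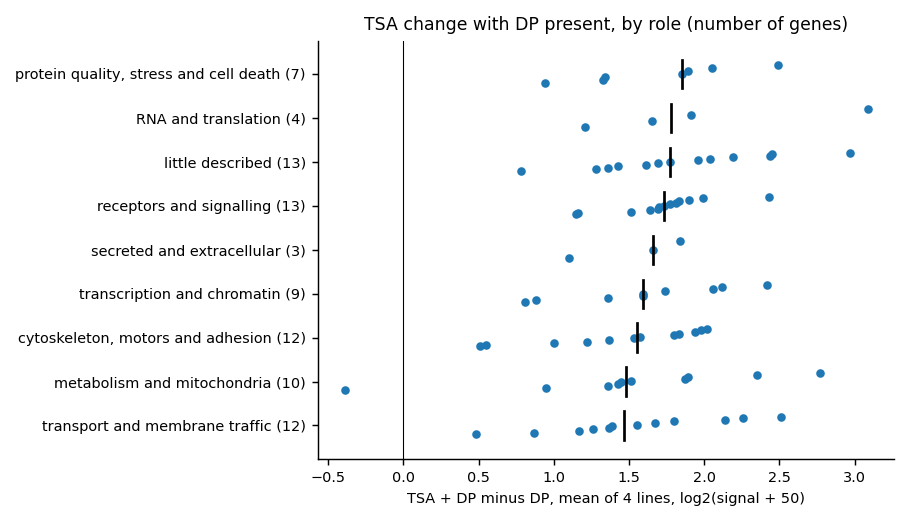
Each point is a member, placed by its TSA change with DP present (horizontal axis, log2(signal + 50), mean of 4 lines) and by its role, and the black bar is the median of the role. The medians run from 1.47 for transport and membrane traffic to 1.85 for protein quality, stress and cell death, and Pdxp is the point below 0.

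Of 10 genes of metabolism and mitochondria, 9 rose and Pdxp fell. Acss2 makes acetyl-CoA, the donor of acetyl groups, from acetate. With DP alone Acss2 read 101, 178, 119 and 240.2, and with TSA and DP 439.6, 534, 607 and 545. It was higher in each line, 2.85-fold, a log2 change of 1.51 ± 0.215 (SE, n = 4 lines, adjusted p = 3.39e-05). Hagh, the second enzyme of the glyoxalase system, read 449.5, 501, 686 and 451 with DP and 1728, 1690.5, 2803 and 1991 with TSA and DP. The change was large against the spread, 3.65-fold, a log2 change of 1.87 ± 0.114 (SE, n = 4 lines, adjusted p = 4.24e-09). Neu1, the lysosomal sialidase, rose 3.71-fold and Hsd17b7, an enzyme of cholesterol synthesis, 2.73-fold (adjusted p = 2.38e-07 and 8.28e-09). Abhd15, known from fat cells, rose 5.09-fold, and Pigf, of glycolipid anchor synthesis, 2.70-fold. Pcx, the mitochondrial pyruvate carboxylase, read 297, 148, 37.7 and 266 with DP and 247, 441, 278 and 504 with TSA and DP. Its groups overlapped, 1.93-fold, a log2 change of 0.95 ± 0.291 (SE, n = 4 lines, adjusted p = 0.0169), and the call was lost without any line but flox1. The array also carries control probe sets for Pcx. Of those past the filter, the 3' one moved by 1.15 and the others by -0.43 and -0.90, so the direction of Pcx rests on the probe set chosen. Pdxk, the kinase that makes active vitamin B6, rose 2.56-fold (adjusted p = 7.14e-07), although another of its probe sets past the filter moved by -0.33.

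The 7 genes of protein quality, stress and cell death all rose, with the highest median of the groups, 1.85. Hspa1a encodes an inducible heat shock protein of the Hsp70 family. With DP alone Hspa1a read 345, 296, 439.8 and 192, and with TSA and DP 1409.9, 1266, 1601 and 1443. It was higher in each line, 4.13-fold, a log2 change of 2.05 ± 0.154 (SE, n = 4 lines, adjusted p = 3.65e-08). Its near-identical neighbour copy Hspa1b, no member, rose 2.16-fold (adjusted p = 1.14e-08), and probes of the pair can take up each other's transcripts. Ern1, the IRE1 alpha sensor of unfolded proteins, read 397, 481, 523 and 464 with DP and 1284, 1133, 1224 and 1382 with TSA and DP. Its 4 lines were nearly equal, 2.53-fold, a log2 change of 1.34 ± 0.131 (SE, n = 4 lines, adjusted p = 6.95e-07). The deubiquitinase Usp20 and the co-chaperone Sgtb rose 3.70-fold and 3.59-fold (adjusted p = 6.75e-08 and 4.20e-08), and Mrnip, of DNA break repair, 2.51-fold. Bmf is a cell death gene of the BH3-only class. With DP alone Bmf read 252, 137, 149.6 and 51.7, and with TSA and DP 366, 361, 256 and 246. The flox1 DP value overlapped the group with TSA and DP, 1.92-fold, a log2 change of 0.94 ± 0.262 (SE, n = 4 lines, adjusted p = 0.00988), and the call was lost without flox2 or without triCH1flox2. A second Bmf probe set past the filter moved the other way by -1.15, so the direction of Bmf rests on the probe set chosen.

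Among secreted and extracellular proteins, Crispld2 read 912, 591, 622 and 396 with DP and 3578, 2510.0, 1949.5 and 1606 with TSA and DP. Flox1 was the highest in either group, and each line was higher with TSA, 3.59-fold, a log2 change of 1.84 ± 0.11 (SE, n = 4 lines, adjusted p = 3.60e-09). The enamel protein gene Tuft1 rose 3.16-fold and Serpini1, the protease inhibitor neuroserpin, 2.14-fold. Of 13 little described genes 12 rose, from 2.43-fold for AU022252 to 7.85-fold for Fam117a, and Prr15 did not pass. In this group Bex1, a small protein of neural and growth factor signalling, read 119, 117, 74.7 and 97.5 with DP and 626, 634, 390.5 and 538 with TSA and DP. Its groups did not overlap, 3.89-fold, a log2 change of 1.96 ± 0.218 (SE, n = 4 lines, adjusted p = 2.54e-06). Dzank1, Nol4l and Tdrp rose 5.41-fold, 4.56-fold and 4.12-fold, and Abtb2, 2810408I11Rik, 6430548M08Rik, Sowahc and A930006K02Rik between 2.57-fold and 3.42-fold. A930006K02Rik lost its call without flox2, triCH1flox1 or triCH1flox2.

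The 4 members that did not pass had mean DP signals under 200. This does not set them apart, since members with large changes were as dim, such as Tent5c at 23.6 and Rgs9bp at 18.5. Zbtb46, a zinc finger factor of dendritic cells, read 60.1, 186, 152 and 16.8 with DP and 169, 279.8, 61.4 and 366 with TSA and DP. Its lines went in different directions, 1.76-fold, a log2 change of 0.81 ± 0.433 (SE, n = 4 lines, adjusted p = 0.16), and without triCH1flox1 it passed (1.37, adjusted p = 0.0245). Prr15 read 83.0, 185, 16.6 and 70.8 with DP and 168, 216, 182 and 113 with TSA and DP, and the flox2 DP value lay inside the range of the other group, 1.72-fold, a log2 change of 0.78 ± 0.363 (SE, n = 4 lines, adjusted p = 0.107). Ppfia3, a liprin of synaptic active zones, read 257, 84.8, 39.9 and 17.4 with DP and 131, 171, 164 and 83.4 with TSA and DP. The flox1 DP value was the highest of all 8, 1.46-fold, a log2 change of 0.55 ± 0.4 (SE, n = 4 lines, adjusted p = 0.318). Fchsd1, a membrane-bending protein, read 132, 56.4, 53.5 and 88.3 with DP and 188, 219, 141 and 43.7 with TSA and DP. The triCH1flox2 value with TSA and DP was the lowest of all 8, 1.43-fold, a log2 change of 0.51 ± 0.388 (SE, n = 4 lines, adjusted p = 0.334). The SEs of these 4 changes ran from 0.363 to 0.433, against a median of 0.215 over the members.

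The levels with DP alone are compared with EtOH without a test, since the EtOH arrays chose the members. DP minus EtOH had a median of 0.05 over the members, against -0.03 over all genes. Of the 83 members 70 lay within 0.5 of 0. The share of all genes in that range was not taken, so this count cannot set the members apart. In 4 members every DP array was above every EtOH array, and in none every one below, against 2.26% and 1.99% of all genes. Those 4 were Pdxp, Clcn3, Mfsd9 and 6430548M08Rik. In every line 56 of 83 were at least 1 log2 unit lower with DP than with TSA, against 1.47% of all genes, and this follows in large part from the rule, which took genes high on the TSA arrays.

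Pdxp and Clcn3 were the exceptions, each 1.69 log2 units above EtOH with DP. Pdxp encodes the phosphatase that breaks down active vitamin B6, opposite to the kinase Pdxk. The EtOH arrays read 258, 199, 217 and 219 for Pdxp, and the TSA arrays 704, 653, 667 and 726. With DP alone Pdxp read 906, 867, 719 and 823, and with TSA and DP 689, 680.2, 679 and 454. DP alone gave the highest level in each line, and each line was lower when TSA was added, by 0.39 ± 0.142 in the log2 mean (SE, n = 4 lines, adjusted p = 0.0396). That call was lost without flox1, flox2 or triCH1flox2, where the change was between -0.41 and -0.26, and with no block for line, no variance trend, no filter or all 16 arrays in the fit (adjusted p = 0.0677 to 0.112). Pdxk, by comparison, read 494, 634, 473 and 571 with EtOH and 336, 504, 654 and 547 with DP, ranges that overlap.

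Clcn3 encodes a chloride and proton exchanger of endosomes. The EtOH arrays read 580.3, 372, 661 and 457 for Clcn3, and the TSA arrays 1745, 1389, 2149 and 1450.0. With DP alone Clcn3 read 1946, 1653, 2027 and 1407, and with TSA and DP 2498, 2799, 2700.0 and 1875. Each agent alone gave levels well above the vehicle, and each line was higher with both agents than with either alone. With DP present the TSA change was 1.39-fold, a log2 change of 0.48 ± 0.0936 (SE, n = 4 lines, adjusted p = 0.000716). The other 4 probe sets of Clcn3 were also above EtOH with DP, by 1.26 to 1.74, and moved between -0.08 and 0.51 with TSA when DP was present. The mean of all its probe sets did not pass (0.32, adjusted p = 0.0673). Mfsd9, a transporter-like protein, lay between, with 131, 154, 144 and 214 for EtOH, 410.2, 377, 310.2 and 240.3 for DP and 830.3, 680.5, 637 and 475 for TSA and DP. Bmf and Pcx were 1.05 and 1.08 log2 units above EtOH with DP, with wide spread over the lines (SD 0.492 and 1.21). The lowest against EtOH were Pou3f1 at -0.51, Tdrp at -0.42, Efna3 and Reep6 at -0.37.

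**Figure D4:**
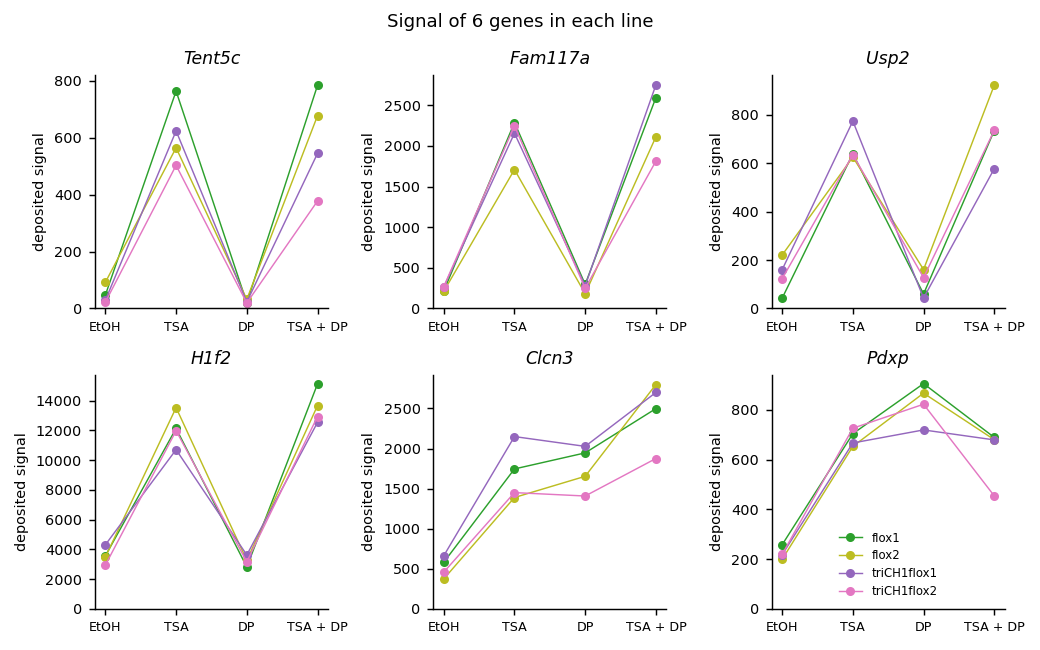
Deposited signal (vertical axis, from 0) of 6 members under the 4 treatments, with 1 colour and joined points for each of the 4 lines. Tent5c, Fam117a, Usp2 and H1f2 lie near their EtOH values with DP, whereas Clcn3 stays at 1407 to 2027 and Pdxp at 719 to 906 with DP.

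TSA and DP together gave nearly the levels of TSA alone, again described without a test. The difference had a median of -0.01 over the members, against 0.00 over all genes. Of the 83 members 79 lay within 0.5 of 0. The share of all genes in that range was not taken, so this count does not set the members apart. In 2 members, Nol4l and Sowahc, the groups stood apart upwards and in 1, Plekha7, downwards, against 1.26% and 1.45% of all genes. The highest means were 0.54 for Clcn3, 0.45 for Depdc7, 0.37 for Nol4l and 0.28 for Rgs9bp. Depdc7 read 578, 624, 529 and 869 with TSA and 702, 721, 1055 and 1181 with TSA and DP. The lowest were Plekha7 at -0.75, Fchsd1 at -0.56, Ppfia3 at -0.52 and Zbtb46 at -0.33. Plekha7 read 279.6, 228, 323 and 291 with TSA and 179, 174, 99.5 and 139 with TSA and DP, without overlap. This pair of treatments shares its TSA arrays with the rule, and a member had to be high there.

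Whether the response of these genes needs the CH1 domains was asked by comparing the classes of lines on the held-out arrays. No member passed the test of a difference between triCH1 and control lines in its TSA change (limma, adjusted p under 0.05), against 0.105% of all genes, and 3 had an unadjusted p under 0.05, against 7.45% of all genes. The median difference was -0.03 over the members and -0.03 over all genes. Pxn changed by 1.59 in control and 1.16 in triCH1 lines, a difference of -0.44 ± 0.147 (SE, adjusted p = 0.435). Angel1 changed by 1.95 and 0.47, a difference of -1.48 ± 0.519 (adjusted p = 0.465), and its DP arrays read 71.0, 52.1, 167 and 252, the triCH1 lines being the higher. H1f2 changed by 2.23 and 1.90 (adjusted p = 0.616). The median SE of this difference over the members was 0.412, so with 2 lines in a class a difference of that size was not detectable.

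**Figure D5:**
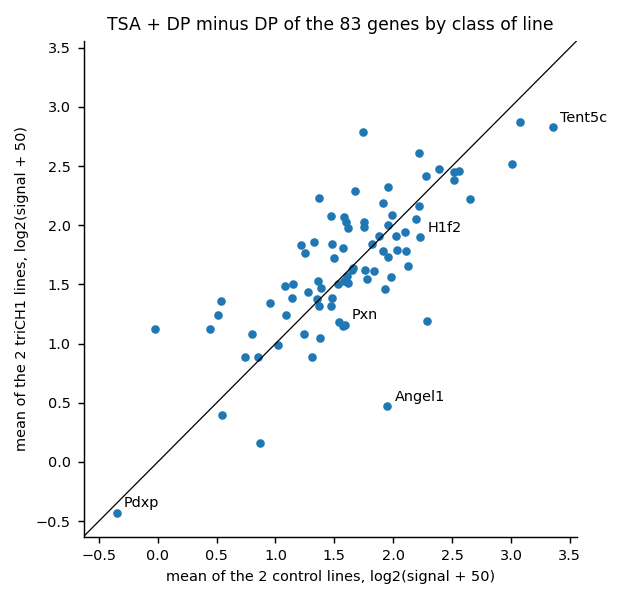
Each point is a member, with its TSA change when DP was present in the 2 control lines (horizontal axis) and in the 2 triCH1 lines (vertical axis), log2(signal + 50). The points lie on both sides of the line of equality, with Angel1 farthest below it among the labelled genes.

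In level over the DP and the TSA and DP arrays, no member passed the test between the classes after adjustment, against 0.174% of all genes, and 6 had an unadjusted p under 0.05, against 8.62%. Efna3 was lower in triCH1 lines by 0.90 ± 0.204 (SE, adjusted p = 0.248) and Tspan13 by 0.81 ± 0.196 (adjusted p = 0.294). Slc9a3r1 was higher by 0.80 ± 0.258 and Depdc7 by 0.68 ± 0.230 (adjusted p = 0.439 and 0.468), and Crispld2 and Kif21b lower by 0.63 and 0.54. All told, 34 members were nominally higher and 49 lower, with a median difference of -0.11, against -0.01 over all genes. Xist, the RNA of the silenced X chromosome, read 10 to 111 in control lines and 1751 to 5389 in triCH1 lines, so the class of line cannot be told apart from the sex pattern or from the embryos of origin.

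The lists of known genes are read against 0.723% of all genes tested that are members, 20.7% that rose and 14.4% that fell. Of 31 genes known to respond upwards to deacetylase inhibitors, 17 rose and 5 fell with DP present (median 0.32), and only Bmf and Hspa1a of them are members. Cdkn1a, the cell cycle inhibitor p21 that many cell types raise with these drugs, fell to 0.616 of its DP level (adjusted p = 3.30e-06) and is no member. Of 64 neuronal and synaptic genes tested, 12 rose and 1 fell, 18.8% against the 20.7% of all genes, with Kif5c, Bex1 and Fgf11 as members. The summed signal of the 10 neuron markers ran from 4514 to 7765 on DP arrays and from 5580 to 9132 with TSA and DP, ranges that overlap. Of the 6 neuron markers past the filter, Tubb3 rose 1.96-fold and Map2 1.26-fold (adjusted p = 0.00151 and 0.0117), while Syp, Syn1, Stmn2 and Gap43 did not pass the test, with log2 changes of -0.40, 0.98, 0.11 and 0.52. Of 41 microtubule and transport genes, 14 rose and 2 fell, among them the members Kif5c and Kif21b and the tubulin Tubb2a at 2.23-fold (adjusted p = 9.52e-09). Of 42 vesicle and lysosome genes, 20 rose and none fell, at a median of 0.34, with Neu1 as a member and the proton pump subunit Atp6v1a at 1.92-fold (adjusted p = 2.17e-07). Of 38 G protein signalling genes 15 rose and 5 fell, with Gnaz and Ptger4 as members. Of 37 stress, heat shock and redox genes, 11 rose and 5 fell, with Hspa1a as a member and Hspa2 at 3.35-fold (adjusted p = 1.23e-07).

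At the 0.723% share over all genes, lists of this size would mostly hold no member, so their counts of 0 are given as a record. No member came from the lists for lipid and sterol handling (9 of 33 rose, 6 fell), cell cycle brakes (10 of 35 rose, 8 fell), kinase and phosphatase feedback (9 of 38 rose, 9 fell) or imprinted genes (6 of 22 rose, 4 fell). None came from the germ line and pluripotency list (3 of 12 rose, 0 fell) or the Wnt, Notch, Hedgehog and BMP list (9 of 47 rose, 9 fell). Klf2, on the germ line and pluripotency list, met the fold criterion and is no member only because it was left out by name. The HIF target genes went the other way, with 34 of 46 lower and 2 higher when TSA was added to DP (median -0.69), and hold no member. Of 24 genes known to fall with these inhibitors 9 fell and 1 rose. Among gene families taken by symbol, 3 of 198 genes with a solute carrier symbol were members, namely Slc35e2, Slc40a1 and Slc9a3r1, of which the last is a scaffold and no carrier. Slc2a3 also met the fold criterion and was left out by name. The kinesins gave 2 of 33 and the ubiquitin ligases and proteases 2 of 213, and 64 of the 83 members belong to no list or family examined.

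Other probe sets of the same genes bear on how far the values rest on 1 probe set. For 36 members another probe set passed the filter, 51 in all, and 37 of these were higher with TSA and DP than with DP in each line, at a median of 1.08. In the mean 6 moved at or below 0, those of Abhd15, Bmf, Clcn3, Epas1, Garem1 and Pdxk. The control probe sets of Pcx, which differed in direction, are not in these counts. The probe sets of Clcn3, Crispld2 and Hsd17b7 carry the suffix for probes shared with other sequences, and those of Bmf, Chchd10 and Pxn the suffix for several transcripts. The members lay on 19 chromosomes in the RefSeq gene order, and 5 pairs had at most 9 protein-coding genes between them, namely Neu1 with Hspa1a, Crispld2 with 6430548M08Rik, Epas1 with Pigf, Ptger4 with Lifr and Slc9a3r1 with Hid1.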

How the data were processed

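RNA of 16 fibroblast cultures was hybridised to Affymetrix arrays, 1 array each. The deposited intensity values are probe set signals of the Affymetrix statistical algorithm, scaled by the authors to a target of 500, per the labels' descriptions. The mean after trimming 2% at each end was 500.0 on every array. The labels give scaling factors between 4.36 and 6.20 and backgrounds between 102 and 235. Signals are relative to each array's total, the number of arrays limits precision, and mismatch-corrected dim signals are noisy. Probe sets were named through the platform table: of 45101, 34945 have 1 symbol, 932 several and 9160 none or are unnamed here, and 64 are controls and were left out.

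Signals were taken as log2(signal + 50). Probe sets at 200 or more on at least 2 arrays were kept (19895), and the one of highest mean stood for each of 11481 genes. The TSA change with DP was tested with limma 3.58.1 (R 4.3.3) on the 8 held-out arrays, those with DP alone and those with TSA and DP. Line was a block, a variance trend was used, and p-values were adjusted by Benjamini-Hochberg over all genes. SEs and p-values come from moderated variances, with 3 residual and 13.9 prior degrees of freedom for the TSA change with DP. Class tests used line differences and line means of the same arrays. Folds are on the log2(signal + 50) scale and understate the change of dim genes. The block is given by the design, since the same line received each treatment. Deviations from the treatment means correlated at 0.237 to 0.386 between DP and TSA + DP arrays of the same line, and at -0.24 to 0.0733 between different lines. No 2 arrays held identical values. The functions were tested on simulated data.

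The rule, the members, the roles and the gene lists were chosen with earlier results of these data known. The genes named are the largest, smallest and uncalled changes, the extremes of level and of the DP contrasts, those nearest the threshold, the leading list members, and others with their role and range. Alternatives were pseudocounts, normalization, filters, the probe set, the fit and leaving out each line. Figures were drawn with matplotlib 3.10.9.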

Additional observations from a re-analysis of the deposited data

How the results depend on the processing

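The count of 78 members raised with DP present lay between 71 and 78 in the 15 alternatives, and 67 members were raised in the main setting and in every alternative. Leaving out 1 line at a time gave 71 to 75. Over all genes the count of calls, 4020, fell to 2491 without the block for line, where 76 members rose. The median change of the members, 1.67, was 1.83 with a pseudocount of 16, 1.22 with 200 and 1.53 with the mean of all passing probe sets, and 1.60 to 1.71 without 1 line. The number of genes meeting the rule, 83, was 22 with a pseudocount of 200, 134 with a threshold of 1.0 and 28 with 1.5. A larger pseudocount makes each rise smaller, so the 22 had to be among the 83. Without 1 line the number was 101 to 122, the highest without flox1, whose EtOH array stood apart. The rule asks for the change in each line. Leaving out a line can therefore only add genes, and the 83 were kept by construction. With the mean of all passing probe sets, Bmf reversed to -0.11 (adjusted p = 0.802). No member passed either class test in any alternative. In all, 13 members changed their call in some alternative, through 43 losses, the reversal of Bmf included, and 1 gain: A930006K02Rik, Angel1, Bmf, Clcn3, Epas1, Gnaz, Mpp3, Nfatc2, Pcx, Pdxp, Plekha7, Ppargc1b and Zbtb46. The cause of these differences was not tested. The fits without 1 line of a class assume that the remaining line varies like the others. The dimmest members limit precision, since 29 had a mean DP signal under 100.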

Other observations

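The Epas1 probe set, for HIF-2 alpha, read the same within 1 signal unit with TSA and with TSA and DP in 3 of 4 lines, and the largest difference over the lines was 51.1 units. Of 11481 genes tested it was the 1 gene with such repeats in 3 or more lines.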
